A study of Rattus norvegicus with 4 samples.

Results

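Transcripts of cholesterol synthesis and of the sterol hydroxylase Cyp27a1 were examined in the soleus, the slow postural muscle of the rat calf. All probe sets annotated to 8 listed symbols were taken (Cyp27a1, Hmgcs1, Fdps, Fdft1, Sqle, Cyp51, Idi1 and Insig1), and 7 of these genes had at least 1, giving 19 probe sets out of 8740 analysed. The signal of Hmgcs1 was not analysed here. The genes were put together with the difference between unloaded and control pools already in view, so these differences are given for them as a description and without a test. They did not differ as one group: Cyp27a1 was higher in the unloaded pools on both of its probe sets, Cyp51 was lower on 4 of 5 and Insig1 on both, Idi1 and Fdps differed by 0.16 log2 or less on their tested probe sets, Fdft1 had 2 of 4 probe sets higher without overlap, and Sqle was too dim to test. Groups without overlap were common, at 25.5% of all tested probe sets as higher and 25.3% as lower.

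The series holds 4 Affymetrix arrays in 2 groups of female rats. Unloaded rats could not put weight on their hindlimbs during 10 h of every day, for 11 days (2 pools), and control rats of the same 11 days stood and walked freely in their cages (2 pools). Each array read soleus RNA mixed from 4 to 5 rats, and the labels give no strain or age and no genetic change or drug in either group. A replicate is therefore a pool, and the spread between pools is not the spread between animals. RNA was taken from whole muscle, so fewer cells of a type and less RNA per cell cannot be told apart.

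Cholesterol is built from acetyl-CoA through the mevalonate pathway, in which farnesyl diphosphate is formed, joined into squalene and closed into a ring that is then trimmed to cholesterol. The genes of the pathway are known targets of SREBP transcription factors, which stay in the endoplasmic reticulum while sterols are plentiful because INSIG proteins hold them there. Cyp27a1 works at the other end of the route: this mitochondrial cytochrome P450 hydroxylates the side chain of cholesterol, which yields an oxysterol that cells can export and that the liver turns into bile acids. Muscle makes cholesterol for its own membranes and also takes it up from lipoproteins.

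Promoter sequence was available from RefSeq (assembly GRCr8) for 6 of the 8 genes: Cyp27a1, Hmgcs1, Fdps, Cyp51, Idi1 and Insig1. Hmgcs1 was thus counted for its window only. The 250 bases before the annotated start are shown for 4 of them: Cyp27a1, which was higher in the unloaded pools, Cyp51 and Insig1, which were lower, and Fdps, whose signals lay close together in both groups. The windows are chr9:83713282-83713531 (plus strand) for Cyp27a1, chr4:30991443-30991692 (plus strand) for Cyp51, chr4:8057770-8058019 (minus strand) for Insig1 and chr2:176804817-176805066 (minus strand) for Fdps. Each is written 5′ to 3′ along the gene, and capitals mark every match, on either strand, to a sterol regulatory element core (TCACNCCAC), a CCAAT box (CCAAT), a GC box (GGGCGG) or an E box (CACGTG).
Cyp27a1: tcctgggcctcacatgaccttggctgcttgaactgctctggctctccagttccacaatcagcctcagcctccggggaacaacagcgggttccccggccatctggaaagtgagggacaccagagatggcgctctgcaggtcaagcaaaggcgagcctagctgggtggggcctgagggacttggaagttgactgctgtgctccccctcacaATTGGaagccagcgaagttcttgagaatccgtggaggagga
Cyp51: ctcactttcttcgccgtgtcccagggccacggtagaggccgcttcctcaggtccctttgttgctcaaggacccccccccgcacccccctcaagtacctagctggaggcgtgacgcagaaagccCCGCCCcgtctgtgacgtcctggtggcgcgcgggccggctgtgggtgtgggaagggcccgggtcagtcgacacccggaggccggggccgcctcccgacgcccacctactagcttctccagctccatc
Insig1: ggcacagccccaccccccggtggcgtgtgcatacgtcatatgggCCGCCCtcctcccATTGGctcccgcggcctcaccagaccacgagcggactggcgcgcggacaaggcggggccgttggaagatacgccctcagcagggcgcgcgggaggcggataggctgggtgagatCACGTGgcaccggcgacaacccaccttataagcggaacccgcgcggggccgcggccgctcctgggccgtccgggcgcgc
Fdps: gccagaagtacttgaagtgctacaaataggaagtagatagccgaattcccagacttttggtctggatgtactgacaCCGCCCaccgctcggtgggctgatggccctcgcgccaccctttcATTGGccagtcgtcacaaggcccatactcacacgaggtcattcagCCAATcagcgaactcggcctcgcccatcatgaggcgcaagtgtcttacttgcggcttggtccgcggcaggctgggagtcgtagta
A CCAAT box, the binding sequence of the factor NF-Y that often works beside SREBP, was matched in 5 of the 6 gene windows and in 34.0% of all 33469 RefSeq windows of this length. Fdps held 2 matches, 85 and 130 bases before the start, Insig1 held 1 at 193 bases and Cyp27a1 held 1 at 41 bases, while these letters did not occur in the Cyp51 window. The GC box was matched in 4 of 6 windows against 30.5% of all windows, at 127 bases in Cyp51, 206 in Insig1 and 174 in Fdps. The 6 windows held from 52.8% (Idi1) to 72.8% (Insig1) of G and C, against a median of 51.2% over all windows. The shares were not matched for this. The E box was matched in Insig1 alone of the 6, at 79 bases, against 5.59% of all windows. The strict sterol regulatory element core was found in 0 of 6 windows and in 0.974% of all windows. Other forms of this element were not searched for. Such matches describe letters in these windows only.

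Cyp27a1 was the member with the largest difference, and both of its probe sets were higher in the unloaded soleus. On the brighter probe set (M38566mRNA_s_at) the signal was 250.9 and 248.6 in the unloaded pools, against 124.8 and 133.4 in the control pools. The pools of each group lay close together and the groups did not overlap. The log2 difference was 0.91 (SE 0.11), or 1.87-fold. On the other probe set (Y07534cds_s_at) the signal was 237.1 and 203.4 in the unloaded pools, against 36.5 and 36.9 in the control pools, a log2 difference of 2.32 (SE 0.14), or 5.00-fold. Both probe sets thus give the same direction with sizes that are far apart. With the offset raised to the 50th percentile of all signals, 34.8, the differences were 0.80 and 1.83.

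Signals are MAS5 values on a linear scale, and log2 differences are unloaded minus control on log2(signal + 9), which shrinks the change of dim probe sets. All 5257 probe sets bright enough to test entered one limma fit with Benjamini-Hochberg adjustment, and 5.25% of them passed an adjusted p of 0.05, 2.59% as higher and 2.66% as lower. Of the 19 probe sets of the 7 genes, 16 were bright enough to test, and these percentages include 2 of them as higher (both of Cyp27a1) and 0 as lower (at an unadjusted p under 0.05, limma counted 3 higher and 5 lower, against 10.3% and 10.5% of all tested probe sets). The genes were chosen on this contrast, so these counts are no test of them and nothing is read from them. The place of the brighter Cyp27a1 probe set among those past the threshold was lost without unloaded pool 1 and without unloaded pool 2, at log2 differences of 0.90 and 0.91.

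**Figure D1:**
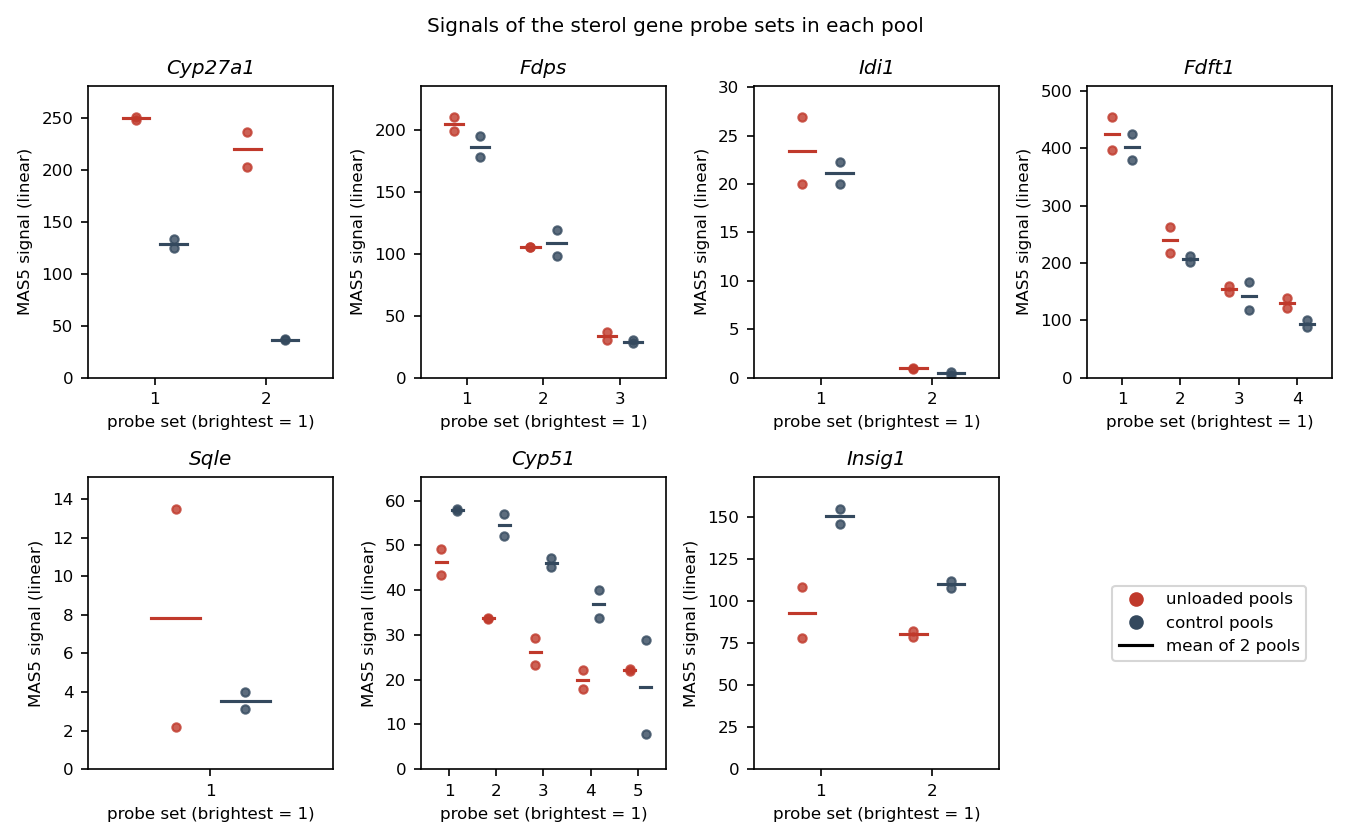
MAS5 signal (linear, from 0) of each probe set of the 7 genes, with 1 point per pool, unloaded pools in red left of control pools in grey, and a bar at the mean of 2 pools. The Cyp27a1 probe sets are higher in the unloaded pools, at 203.4 to 250.9 against 36.5 to 133.4 in controls, and each of the 2 Insig1 probe sets is lower, at 78.1 to 108.2 over both against 107.8 to 155.0 in controls.

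Among the enzymes that carry mevalonate products to squalene, the log2 differences ran from -0.04 to 0.43. Idi1 isomerises isopentenyl diphosphate, the building block of all isoprenoids, and its brighter probe set read 26.9 and 20.0 in the unloaded pools, against 20.0 and 22.3 in the control pools. The groups overlapped, and the log2 difference was 0.10 (SE 0.21), with -0.06 to 0.25 over 11 alternatives. Its other probe set read 1.00 and 0.90 in unloaded pools, against 0.30 and 0.60 in controls, which is below the offset on all 4 arrays and was not tested.

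Fdps joins isoprene units into farnesyl diphosphate, the branch point towards sterols, ubiquinone and prenylated proteins. Its brightest probe set read 199.2 and 210.2 in the unloaded pools, against 178.0 and 194.9 in the control pools, a log2 difference of 0.13 (SE 0.11). Here both unloaded pools lay above both control pools by a narrow margin. The second probe set, named for the same sequence record, gave 105.1 and 105.4 in unloaded pools, against 97.9 and 119.3 in controls (-0.04, SE 0.14). The third gave 36.5 and 30.3 in unloaded pools, against 30.1 and 27.7 in controls (0.16, SE 0.19). No Fdps probe set differed by more than 0.16, and the direction of the second turned in 1 of its 12 alternatives.

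Fdft1, squalene synthase, commits farnesyl diphosphate to sterols, and all 4 of its probe sets had log2 differences above 0. The brightest read 396.5 and 454.4 in unloaded pools, against 379.6 and 424.5 in control pools, with overlapping groups (0.08, SE 0.11). The next gave 218.1 and 262.0 in unloaded pools, against 212.6 and 201.0 in controls (0.20, SE 0.12). The third gave 160.6 and 149.9 in unloaded pools, against 166.8 and 117.7 in controls (0.14, SE 0.17), where the control pools stood further apart than the groups. The dimmest gave 138.2 and 121.2 in unloaded pools, against 100.1 and 88.3 in controls, a log2 difference of 0.43 (SE 0.14) without overlap. The direction of the brightest Fdft1 probe set turned in 2 of 12 alternatives and that of the third in 1 of 12.

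Sqle, squalene epoxidase, sets the pace of the sterol branch together with the reductase that makes mevalonate. Its only probe set was too dim to test, at 13.5 and 2.20 in the unloaded pools, against 3.10 and 4.00 in the control pools. Of these signals 3 lie under the offset, and the unloaded pools straddle the controls, so no difference could be detected at this brightness.

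Cyp51, the microsomal cytochrome P450 that demethylates lanosterol, was lower in the unloaded soleus on its 4 tested probe sets. The brightest (rc_AA997614_s_at) read 43.4 and 49.2 in unloaded pools, against 57.7 and 58.2 in control pools (-0.28, SE 0.15). U17697_s_at read 33.6 and 33.8 in unloaded pools, against 52.2 and 57.0 in controls (-0.57, SE 0.16). AB004096_at read 23.3 and 29.2 in unloaded pools, against 45.2 and 47.1 in controls (-0.65, SE 0.18). The groups did not overlap on any of these 3. The fourth, rc_AA963449_s_at, read 17.8 and 22.2 in unloaded pools, against 33.8 and 40.1 in controls (-0.66, SE 0.20), again without overlap. The fifth, too dim to test, read 21.9 and 22.4 in unloaded pools, against 28.8 and 7.90 in controls, and its control pools lay on either side of the unloaded ones. In the 11 alternatives that kept them the log2 differences of the 4 tested probe sets ran from -0.80 to -0.19. These signals are low, and the probe sets read the same gene in the same pools, so they are not 4 independent measurements.

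Insig1 retains the SREBP escort protein in the endoplasmic reticulum and is itself an SREBP target. On L13619_at the signal was 78.1 and 108.2 in the unloaded pools, against 155.0 and 146.0 in the control pools, a log2 difference of -0.66 (SE 0.16), or 1.58-fold lower. On L13619_g_at, named for the same sequence record, it was 82.3 and 78.8 in unloaded pools, against 112.1 and 107.8 in controls, a log2 difference of -0.41 (SE 0.13), or 1.33-fold lower. Both unloaded pools lay below both control pools on each probe set. On L13619_at the unloaded pools were further apart than the control pools, and the log2 difference was -0.44 without unloaded pool 1 and -0.87 without unloaded pool 2.

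**Figure D2:**
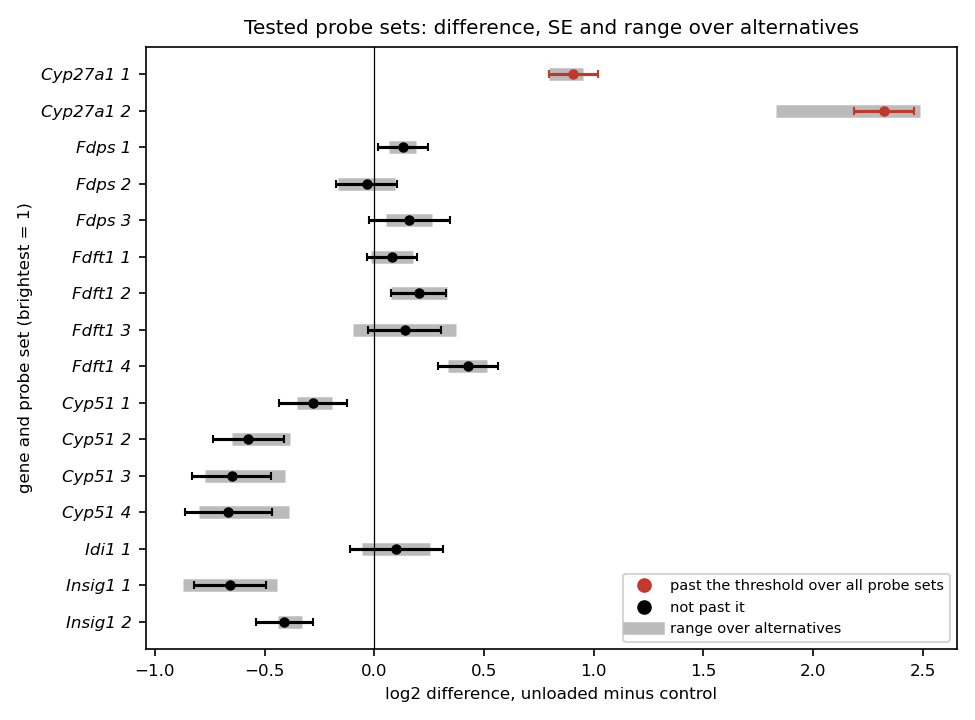
Log2 difference, unloaded minus control, of the 16 tested probe sets (points, bars are the SE of the limma fit, red where past the threshold over all probe sets), with grey bands for the range over the alternative settings. Cyp27a1 lies at 0.91 and 2.32, Cyp51 between -0.66 and -0.28, Insig1 at -0.66 and -0.41, and Fdps, Fdft1 and Idi1 between -0.04 and 0.43.

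Over the 16 tested probe sets the median log2 difference was 0.09, against 0.00 over all 5257, and 9 were above 0 and 7 below. Both unloaded pools lay above both control pools on 6 of the 16 (2 of Cyp27a1, 2 of Fdps and 2 of Fdft1) and below both on 6 (4 of Cyp51 and 2 of Insig1). Over all tested probe sets these shares were 25.5% and 25.3%. The probe sets of 1 gene lay on 1 side for Cyp27a1, Cyp51 and Insig1. The 7 probe sets of Fdps and Fdft1 include 3 whose groups overlapped.

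The pools of a group also differ from each other. The direction of this difference does not enter the contrast on which the genes were chosen, but its size enters the SE of that contrast. The median absolute difference between the 2 unloaded pools was 0.18 log2 over the 16 probe sets, against 0.14 over all tested probe sets. Between the 2 control pools it was 0.10, against 0.15. In the unloaded group pool 1 lay above pool 2 on 7 of 16 probe sets and in the control group on 6 of 16, so both directions occurred within each group. The tested probe sets of Cyp51 were all lower in pool 1 than in pool 2 in both groups, by 0.01 to 0.24 log2 in the unloaded group and by 0.01 to 0.20 in the control group. The 2 Insig1 probe sets differed in sign between the unloaded pools, at -0.43 and 0.06, and the 4 of Fdft1 ran from -0.25 to 0.18.

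**Figure D3:**
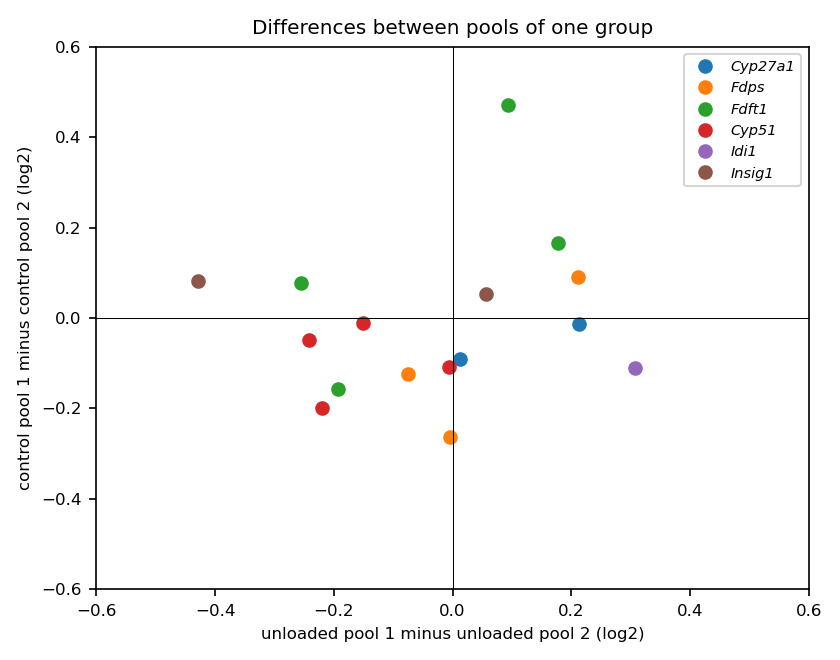
Log2 difference between the 2 pools of a group for the 16 tested probe sets, unloaded pools on the horizontal axis and control pools on the vertical axis, coloured by gene. The points lie in all 4 quadrants, the 4 of Cyp51 in the lower left, and the widest differences are -0.43 between unloaded pools for Insig1 and 0.47 between control pools for Fdft1.

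Further genes of sterol metabolism were drawn from lists of 77 symbols, of which 47 had a probe set and 38 were bright enough to test. Each was counted by its brightest probe set. Of the 38 genes 0 rose, 1 fell and 37 did not pass in limma, with 5 higher and 4 lower at an unadjusted p under 0.05. Over all tested probe sets 2.59% passed as higher and 2.66% as lower, and 10.3% and 10.5% had an unadjusted p under 0.05 in these directions, so the counts lie near the background, which also stands behind the counts of the single lists that follow. Their median log2 difference was -0.06.

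The list of other synthesis enzymes showed 0 calls in limma among 9 tested genes, with 1 (the mitochondrial Acat1) lower at an unadjusted p under 0.05 and a median of -0.13. Acat1, a thiolase that makes acetoacetyl-CoA in mitochondria, read 1227.2 and 1421 in unloaded pools, against 1628.2 and 1838.2 in control pools (-0.39, SE 0.11, adjusted p = 0.0907, limma). Its second probe set gave 975.2 and 887.4 in unloaded pools, against 1006 and 890.2 in controls, with overlapping groups (-0.02, SE 0.10, adjusted p = 0.932, limma), and its dimmest gave -0.42 (SE 0.13, adjusted p = 0.117, limma). Acat2, the other thiolase of the list, gave 0.13 (SE 0.16, adjusted p = 0.720, limma) with overlapping groups. The decarboxylase Mvd, which forms isopentenyl diphosphate, gave -0.29 (SE 0.18, adjusted p = 0.403, limma). Msmo1, a methyl sterol oxidase that acts later than Cyp51, had opposite signs on 2 probe sets, 0.15 (SE 0.12, adjusted p = 0.564, limma) on the brighter and -0.22 (SE 0.18) on the dimmer.

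Of the SREBP machinery 2 genes were tested, and 0 passed in limma, also at an unadjusted p under 0.05. Srebf1, the SREBP gene known mainly for driving fatty acid synthesis, read 91.4 and 137.3 in unloaded pools, against 141.1 and 152.1 in control pools (-0.36, SE 0.18, adjusted p = 0.310, limma). This difference was -0.09 without unloaded pool 1 and -0.63 without unloaded pool 2. Mbtps2, a protease that releases SREBP, gave 0.01 (SE 0.20).

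Lipoprotein uptake and transport inside the cell gave 0 calls among 4 genes by the brightest probe set in limma, with 2 higher at an unadjusted p under 0.05. Scarb1, the receptor for high-density lipoprotein, had log2 differences above 0 on all 3 of its probe sets. The brightest read 96.0 and 126.9 in unloaded pools, against 41.4 and 88.5 in controls (0.77, SE 0.29, adjusted p = 0.186, limma). This difference was 0.29 without control pool 1 and 1.24 without control pool 2. The next read 56.9 and 112.8 in unloaded pools, against 44.9 and 40.4 in controls (0.80, SE 0.27). The dimmest read 51.8 and 38.3 in unloaded pools, against 17.4 and 14.6 in controls, and rose (1.10, SE 0.21, adjusted p = 0.0245, limma), a call lost whichever pool was left out (adjusted p = 0.0844 to 0.193). With the mean over its 3 probe sets Scarb1 also passed (0.89, SE 0.17, adjusted p = 0.0199, limma). Stard3, which moves cholesterol out of late endosomes, did not pass on either probe set (0.29, SE 0.10, and 0.39, SE 0.10), and the lipoprotein receptor Vldlr gave -0.15 (SE 0.12).

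Among 9 genes of sterol esters and efflux none passed by its brightest probe set, with 2 higher and 1 lower at an unadjusted p under 0.05 in limma. Apoe, the apolipoprotein that carries cholesterol away from cells, read 643.0 and 643.6 in unloaded pools, against 481.5 and 508.5 in control pools (0.37, SE 0.09, adjusted p = 0.0620, limma), while its other probe set gave -0.10 (SE 0.11). Lcat, which esterifies cholesterol on lipoproteins, read 43.4 and 31.7 in unloaded pools, against 65.8 and 65.4 in controls (-0.69, SE 0.18, adjusted p = 0.0673, limma). Lipa, the lysosomal lipase for cholesterol esters, had log2 differences of 0.26 (SE 0.11, adjusted p = 0.231, limma) and 0.40 (SE 0.16, adjusted p = 0.218, limma) on its brighter probe sets. The dimmest read 45.1 and 35.3 in unloaded pools, against 7.10 and 11.3 in controls, which lie around the offset of 9, and passed (1.44, SE 0.23, adjusted p = 0.0123, limma). That call was lost whichever pool was left out (adjusted p = 0.0599 to 0.136). The dimmest Lipa probe set, at a control mean of 9.2, was likewise bright enough to test only through its unloaded pools. The mean over the 3 probe sets, to which the dimmest adds most, passed at 0.70 (SE 0.15, adjusted p = 0.0305, limma).

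The hydroxylation list held the one gene that fell. Hsd3b7, an enzyme of bile acid synthesis that acts on hydroxylated sterols, read 275.3 and 294.2 in unloaded pools, against 451.0 and 418.4 in control pools (-0.59, SE 0.10, adjusted p = 0.0176, limma). Its call was lost whichever pool was left out (adjusted p = 0.0777 to 0.154), at log2 differences of -0.65 to -0.54. Of the electron carriers on the list, Fdx1 and Por differed in opposite directions without passing. Fdx1, the ferredoxin that feeds mitochondrial P450 enzymes such as Cyp27a1, read 344.7 and 352.7 in unloaded pools, against 273.2 and 267.4 in controls (0.36, SE 0.10, adjusted p = 0.0901, limma). Por, the reductase that feeds microsomal P450 enzymes such as Cyp51, read 256.9 and 265.6 in unloaded pools, against 321.4 and 336.7 in controls (-0.32, SE 0.10, adjusted p = 0.127, limma), and its other probe sets gave -0.34 and -0.67. The groups did not overlap on any of these Fdx1 and Por probe sets. That held for 25.5% of all tested probe sets as higher and for 25.3% as lower. Of the other cytochrome P450 genes of the list, Cyp7a1 and Cyp7b1, at 0.00 to 9.40, were too dim to test, as were Cyp11a1 and Cyp27b1. Cyp24a1 was tested on its brighter probe set, with overlapping groups (-0.17, SE 0.30).

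The non-sterol branch of the pathway, which attaches isoprenoids to proteins and ubiquinone, had a median of -0.01 over 6 genes with no call and with 0 at an unadjusted p under 0.05 in limma. Rabggtb gave -0.20 (SE 0.11), Pggt1b -0.36 (SE 0.20) and Fntb 0.22 (SE 0.18) on its brighter probe set and -0.15 (SE 0.18) on the other, all of them subunits of protein prenyltransferases.

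**Figure D4:**
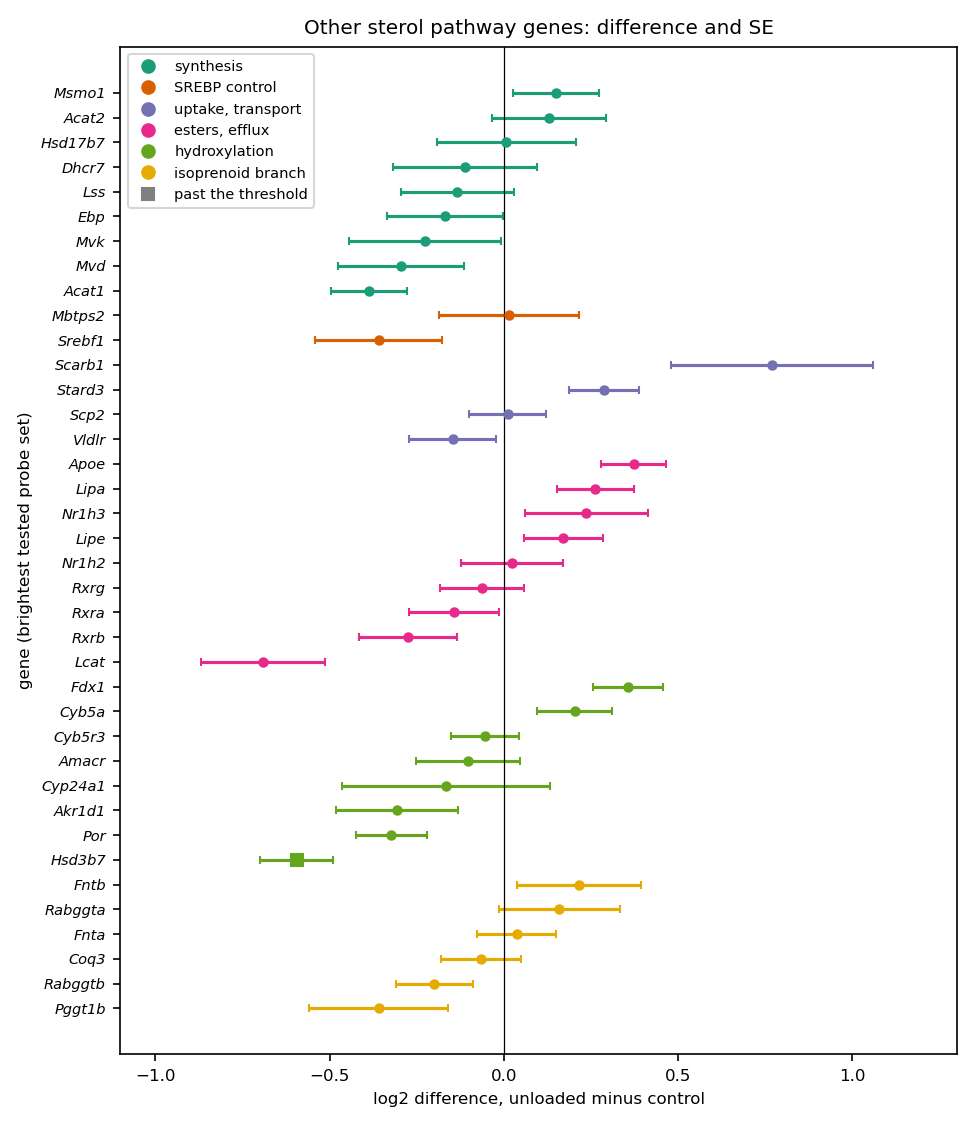
Log2 difference, unloaded minus control, of the 38 other sterol pathway genes by their brightest tested probe set, with the SE of the limma fit, grouped and coloured by list. The square marks Hsd3b7 at -0.59, the gene past the threshold, and the others lie between -0.69 for Lcat and 0.77 for Scarb1.

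The genes whose profile over the 4 arrays lay nearest to that of the brighter Cyp27a1 probe set were Tnfrsf21, a death receptor, Pde4a, a cyclic AMP phosphodiesterase, Atp1b2, a sodium pump subunit, Eef2k, a kinase of translation elongation, and Dcn, the matrix proteoglycan decorin. Their root mean square distance on control-centred log2 signals was 0.02, 0.04, 0.06, 0.07 and 0.07. For Tnfrsf21 the signal was 187.5 and 187.1 in unloaded pools, against 91.2 and 97.3 in control pools. Over 4 arrays such a ranking mostly reflects a log2 difference of like size, from 0.87 to 0.97 for these genes.

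The 4 arrays had median signals of 34.0 to 35.7, and log2 signals correlated at 0.988 between unloaded pools, 0.987 between control pools and 0.973 to 0.974 between groups. The slow muscle list, which also holds the general muscle genes Ckm and Acta1, gave high signals. The 8 of 11 with a probe set summed to 51774.1 and 57991.3 in unloaded pools, against 55657 and 55314.7 in control pools, and none was called. Liver markers, looked at because Cyp27a1 is abundant in hepatocytes, summed to 186.7 and 193.2 in unloaded pools, against 192.4 and 177 in controls over all 8 genes, with Alb at 5.20 and 7.40 in unloaded pools, against 9.10 and 8.40 in controls. Macrophages also use Cyp27a1, and 5 of 10 macrophage markers summed to 725.3 and 637 in unloaded pools, against 527.4 and 672.3 in controls, with overlapping groups. The median log2 difference of these 5 was 0.19. C1qb read 328.7 and 315.2 in unloaded pools, against 247.5 and 270.2 in controls (0.31, SE 0.11). Cd14 went the other way, at 86.4 and 84.9 in unloaded pools, against 101.3 and 110.5 in controls (-0.28, SE 0.13). Schwann cell markers, 5 of 8, summed to 699.6 and 755 in unloaded pools, against 730.2 and 781.1 in controls. Adipocyte markers, 6 of 8, summed to 1777.7 and 2114.1 in unloaded pools, against 1834.2 and 2090.1 in controls. Endothelial markers, 4 of 7, summed to 315.7 and 342.6 in unloaded pools, against 369.8 and 371.5 in controls, and 2 of 3 red blood cell markers to 5131.5 and 5035.3 in unloaded pools, against 4256.1 and 4507.5 in controls. No marker of these lists passed and none was at 0 on all arrays. The endothelial and red blood cell sums did not overlap between groups, which single tested probe sets did in 25.3% of cases as lower and 25.5% as higher. Of the endothelial genes only Flt1 did not overlap (-0.23, SE 0.13), while Pecam1 gave 0.02 and Vwf -0.03. The red blood cell sum was mostly Hbb, at 4896.6 and 4837.7 in unloaded pools. The part of any of these cell types in the sterol gene differences was not tested.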

How the data were processed

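The values are intensities summarised per probe set with MAS5 by the authors, per the submitters' processing notes, in an unstated version. They are linear as deposited, and their trimmed mean of 150.2 or 150.3 on every array is what scaling each array to one target gives. Such scaling assumes alike total signal, and dim MAS5 signals are noisy. The number of arrays limits the precision.

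Of 8799 probe sets 59 Affymetrix controls were left out. Names came from the platform annotation, updated by gene ID to RefSeq (GRCr8): 7006 probe sets had 1 symbol, 308 several and 1426 none, and no probe set with several symbols listed a member. Signals were used as log2(signal + 9), 9 being the 25th percentile. A mean signal over all 4 arrays of 21.0 or more (40th percentile) was required for a test. The fit used limma 3.58.1 in R 4.3.3 (lmFit, eBayes with a mean-variance trend, no block), adjusted over all 5257 by Benjamini-Hochberg. The fit was tested on simulated data. Promoter matches and figures used Python 3.11.15 and matplotlib 3.10.9.

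Members, lists and tests were chosen with earlier results of these data known. Named were all members, every listed gene past the threshold, up to 3 per list with the smallest p, and the 5 profiles nearest to Cyp27a1. The dimmest probe sets of Scarb1 and Lipa and the second of Acat1 were named after their values were seen. So were Acat2, Cyb5a, Cyb5r3, Cyp11a1, Cyp24a1, Cyp27b1, C1qb, Cd14, Flt1 and Hbb. The planned search for profiles near Hmgcs1 was not made. Replicate numbers are pool numbers, and same-numbered pools did not deviate together (r = -0.04 over 5257 probe sets). Tried besides were other scalings (quantile, median), offsets and filters, no trend, a pool block, leaving out each pool and, for the lists, gene means.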

Additional observations from a re-analysis of the deposited data

How the results depend on the processing

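The counts of probe sets that differed over the whole table depended most on the filter, the variance model and the number of arrays. In place of 136 higher and 140 lower, 42 and 48 passed when dim probe sets were kept, 52 and 61 without a mean-variance trend, and 78 and 87 with the pool number as a replicate block. With 1 pool left out 22 to 43 were higher and 38 to 55 lower. Of the members, chosen on this contrast, 2 probe sets (both of Cyp27a1) were past the threshold as higher with all 4 arrays, the replicate block among these settings, and 1 to 2 with a pool left out, from which nothing is read. With the filter at the 60th percentile 1 member probe set was lower (Insig1) and 1 other sterol gene was higher (Apoe). Of the other sterol genes 0 were lower without a filter, without a trend, and with any 1 pool left out, in place of 1, and 2 were higher (Scarb1 and Lipa) when a gene's probe sets were averaged. The dimmest Scarb1 and Lipa probe sets lost their calls with the replicate block (adjusted p = 0.0577 and 0.0542, limma) and without a filter (0.105 and 0.0608). The median difference of the members and that over the 38 other sterol genes together moved by less than the SD between pools in the alternatives run, while medians of single lists were not recomputed. The sterol genes with signals near the offset, Sqle and the dimmer probe set of Idi1, have no usable difference at this brightness.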
